A study of Mus musculus with 90 samples.

Results

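The addition of interferon gamma (IFG) to lipopolysaccharide (LPS) was examined after 1 h in RAW 264.7 cells, a mouse macrophage line. All 6 arrays of LPS+IFG at 1 h and all 6 arrays of LPS at 1 h were taken, which are 12 of the 90 arrays of the series. LPS was given at 100 ng/ml and IFG at 5 nM. The labels list lipid binding protein at 100 pM with LPS alone and do not list it with LPS+IFG, so its absence cannot be told apart from the presence of IFG. Every array set total RNA of treated cells against RNA of cells kept in medium for the same time, in 2 colours. Each condition had 3 numbered sets of 2 arrays with the dyes swapped, and the mean of a swapped pair, called a set below, was 1 replicate. The labels do not say whether sets were separate cultures, so the p-values hold only for a spread between sets, which may be technical. That spread was estimated for each feature over the 45 sets of all 15 conditions of the series, not over the compared sets alone. The labels also do not say whether treatments shared untreated RNA. IFG alone at 1 h (3 sets) and the same treatments at 2 and 4 h served for comparison.

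Interferon gamma binds a receptor that signals through Janus kinases, and promoters of its early targets are known to hold gamma-activated sites. A first group of genes, among them the interferon regulatory factors, then drives further genes through interferon-stimulated response elements. LPS acts through Toll-like receptor 4 and NF-kB and MAP kinases. Macrophages that receive both signals are known for strong microbicidal and inflammatory gene expression.

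Values are log2 ratios of treated over untreated RNA, and a difference is the mean of LPS+IFG minus the mean of LPS, with its standard error (SE). The direction of the ratio is likely, not stated in the labels: with red over green, Tnf, a cytokine known to be induced by LPS, had a mean above 0 after LPS, and Irf1, known to be induced by IFG, after IFG. Calls needed a difference of at least 2-fold and an adjusted p under 0.05, from limma with Benjamini-Hochberg adjustment over 11600 features. Of these features, 9760 were genes and 1840 were probes without a gene name. Features called higher with LPS+IFG numbered 73, or 0.629%, and features called lower numbered 3, or 0.0259%. The higher ones were 66 named genes and 7 unnamed probes. In 72 of the 73 every set of LPS+IFG with a value lay above every set of LPS, and in 2 of the 3 lower ones below. Without regard to the test, sets did not overlap in 578 features toward higher and 425 toward lower values. The median difference over all features was 0.002.

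**Figure D1:**
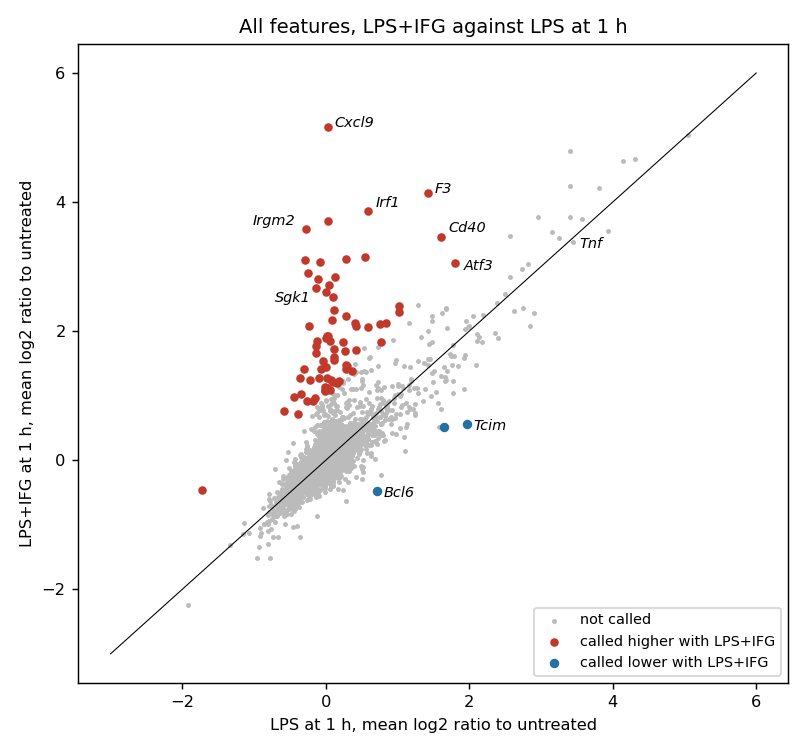
Mean log2 ratio to untreated RNA after LPS+IFG (vertical axis) against LPS (horizontal axis) at 1 h, 1 point per feature, with 73 features called higher in red, 3 called lower in blue and the line of equal ratios. Cxcl9 lies farthest above the line, at 5.17 against 0.03, and Tnf lies close to it.

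The 12 arrays had no value, written as an exact 0, for 8.38 to 17.0% of probes. The SD between sets had a median of 0.134 for LPS and 0.154 for LPS+IFG, and the number of arrays limits the precision. Deposited ratios of swapped arrays would correlate negatively over probes if treatment alone moved them. Their correlations were -0.38 to 0.076 in LPS sets, -0.302 to -0.143 in LPS+IFG sets and -0.023 to 0.22 in IFG sets, so dye effects were large in some sets. Ratios give no level of a gene, so markers could be compared only between treatments. None of 15 macrophage markers was called, nor any of 9 T cell, 7 B cell, 9 fibroblast and 10 neutrophil markers. Among 11 reference genes the median difference was 0.006 and none was called. RNA came from whole cultures, so more RNA per cell and more responding cells cannot be told apart.

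Of the IFG pathway itself, no receptor chain or Janus kinase was called within this hour, whereas the feedback inhibitors Socs1 and Cish and the transducers Stat3 and Stat2 were. These were the only calls among 24 measured genes of the receptor and JAK-STAT list, whose median difference was 0.07. The receptor chains Ifngr1 and Ifngr2 differed by -0.16 (SE 0.16, 95% interval -0.48 to 0.17) and -0.28 (SE 0.16, -0.61 to 0.04). Jak1 differed by 0.12 (SE 0.11). For Jak2 the value was 0.46 (SE 0.39), and its interval reached 1.24. The 20 members without a call, which include Socs3, the PIAS inhibitors and Stat5a, Stat5b and Stat4, ranged from -0.28 to 0.46.

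Socs1, an inhibitor of Janus kinases, had ratios of 0.34, 0.61 and 0.70 in the LPS sets and 3.04, 2.64 and 3.79 in the LPS+IFG sets. It was 2.60 higher (SE 0.20, adjusted p = 1.11e-11), and its IFG sets alone read 2.81, 2.90 and 3.17. The IFG sets lay within the range of the combination sets. Cish, another inhibitor of cytokine signalling, stood at 0.63, 0.72 and 0.40 with LPS and at 1.98, 2.41 and 1.80 with LPS+IFG, a difference of 1.48 (SE 0.18, adjusted p = 3.07e-07). Unlike Socs1 it was low with IFG alone, where the mean was 0.62. Stat3, a signal transducer of IL-6 and IL-10 type cytokines, went from 0.35, 0.34 and 0.11 to 1.71, 1.74 and 1.64 (1.43, SE 0.15, adjusted p = 2.54e-08). Stat2, part of the complex that binds interferon-stimulated response elements, lay below 0 in all LPS sets (-0.74, -0.47 and -0.53) and above it in all LPS+IFG sets (0.51, 0.89 and 0.87). No set of either condition overlapped the other in these 4 genes.

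Among transcription factors, 2 of 8 measured interferon regulatory factors were called higher, with a list median of 0.31. Irf1, which activates the second wave of IFG targets, had LPS sets of 0.62, 0.19 and 0.97 and LPS+IFG sets of 3.78, 3.30 and 4.52. IFG alone gave 3.44, 2.94 and 3.95, so its sets overlapped those of the combination and both stood apart from LPS. Irf8, a factor that sets macrophage identity, read -0.05, -0.33 and -0.35 with LPS. With LPS+IFG it read 3.21, 2.90 and 2.58, a difference of 3.14 (SE 0.22, adjusted p = 4.11e-13). IFG alone gave Irf8 a mean of 2.04. The other members did not pass the test in the main fit. Irf4 had the largest difference of these, 1.03 (SE 0.36, adjusted p = 0.475), with overlapping sets. It was called with all 90 arrays and a dye term (1.03, adjusted p = 0.0201). Irf2, Irf3, Irf5, Irf7 and Irf9 lay between -0.04 and 0.35.

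Batf2, a basic leucine zipper factor that partners IRF proteins, moved with them: -0.38, 0.09 and -0.04 with LPS against 2.83, 2.37 and 3.23 with LPS+IFG (2.92, SE 0.23, adjusted p = 1.11e-11). It belongs to a list of 21 STAT3-type targets and related factors, of which 2 were called higher, 1 lower and the median was 0.04. Cebpd, the other higher member and a factor of the acute phase response, differed by 1.29 (SE 0.27, adjusted p = 0.00555). Its sets overlapped, since the LPS set at 1.02 lay above the LPS+IFG set at 1.01, although each numbered set rose. Bcl6, a transcriptional repressor and the lower member, is described with the genes that fell.

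Interferon-inducible GTPases, which attack the vacuoles of intracellular microbes, held the largest shift of any list. All 4 measured immunity-related GTPases were called higher, with a median difference of 3.54, as were 2 of 3 guanylate-binding proteins (median 1.91). LPS alone left them near untreated levels: Irgm2 read -0.30, -0.33 and -0.20. LPS+IFG took Irgm2 to 3.65, 3.71 and 3.41, which was 3.87 higher (SE 0.24, adjusted p = 4.11e-13), or 14.6-fold. The spread between its sets was small in both conditions. Tgtp1 went from 0.13, 0.00 and -0.06 to 4.08, 3.65 and 3.39 (3.68, SE 0.35, adjusted p = 1.54e-09). Its 2 probes agreed in direction and not in size, at 2.54 and 4.81. Iigp1 stood at -0.52, -0.14 and -0.21 with LPS and at 3.15, 3.43 and 2.73 with LPS+IFG. Igtp stood at -0.11, -0.27 and 0.00 with LPS and at 2.85, 2.63 and 2.54 with LPS+IFG. IFG alone gave means of 3.09 for Irgm2, 2.87 for Tgtp1, 2.96 for Iigp1 and 2.57 for Igtp, so for Iigp1 and Igtp its sets overlapped those of the combination. Gbp3 differed by 2.84 (SE 0.28, adjusted p = 3.02e-09) and Gbp8 by 1.91 (SE 0.39, adjusted p = 0.00285), the latter from 2 LPS sets because 1 had no value. Gbp4 was 0.26 higher without passing the test.

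**Figure D2:**
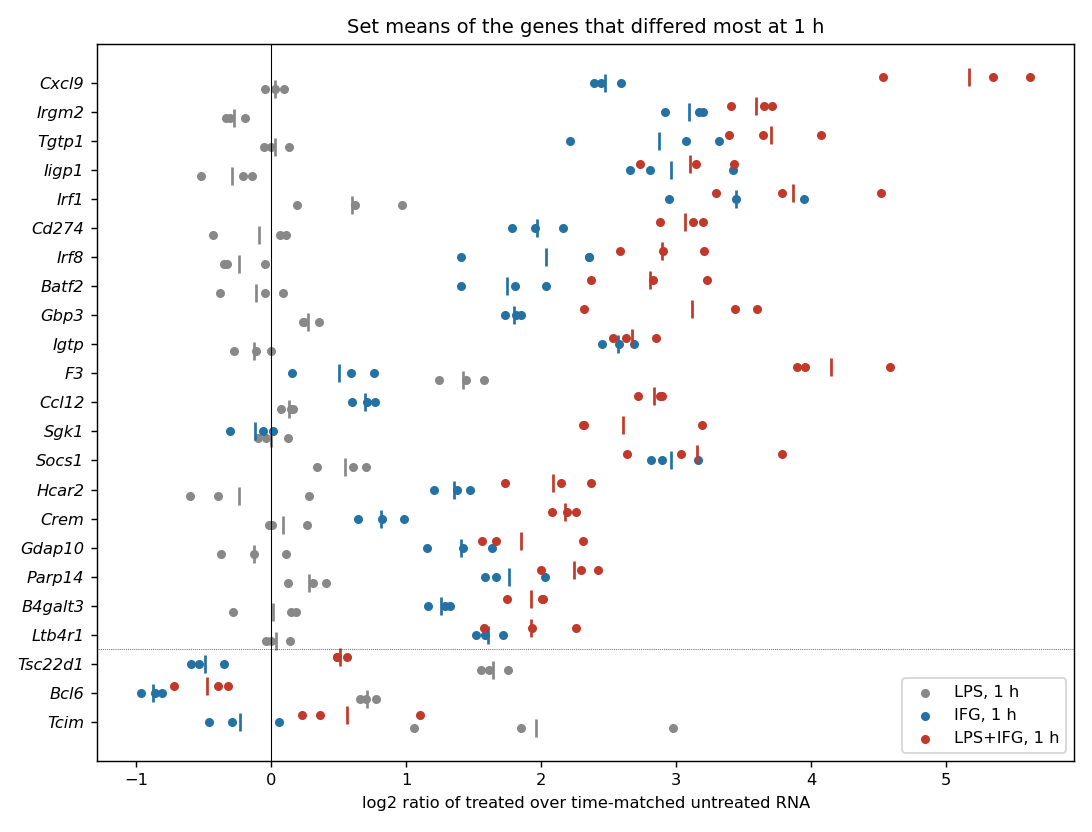
Log2 ratio of treated over time-matched untreated RNA (horizontal axis) in each of 3 sets at 1 h of LPS (grey), IFG (blue) and LPS+IFG (red), with vertical ticks at the means, for the 20 named genes with the largest called differences that have all sets (upper part) and the 3 genes called lower (below the dotted line). Red and blue points overlap for Irf1, Iigp1, Igtp, Socs1, Gdap10, Parp14 and Ltb4r1.

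Of 11 guanylate-binding proteins on the list 5 had a probe and 3 were tested, and of 13 immunity-related GTPases 6 had a probe and 4 were tested. Features with a probe that were not tested lacked values in at least 1 condition of the fit. With values required only in LPS and LPS+IFG at 1 h, a choice made after seeing the data, 395 more features could be tested and 7 of them were called higher. The largest was Gbp2b, tested on 1 of its 2 probes. Its LPS sets read -0.03, 0.46 and 0.26 and its LPS+IFG sets with a value read 5.22 and 5.72 (difference 5.24, SE 0.41, adjusted p = 1.17e-09). The other probe of Gbp2b, which was not tested, had smaller values, with array medians of 0.46 with LPS and 3.29 with LPS+IFG. Gbp2 went from 0.30, 0.28 and 0.24 to 5.13, 4.14 and 4.68 (4.38, SE 0.40, adjusted p = 1.69e-09). Both guanylate-binding proteins had IFG-alone sets between 1.70 and 3.86. Ifi47, a further immunity-related GTPase, was 2.64 higher (SE 0.32). Cxcl11, a ligand of the receptor CXCR3, was 2.85 higher (SE 0.33), and Rsad2, the antiviral protein viperin, 1.69 higher (SE 0.31). Irgm1, a regulator of these GTPases, had a value on all 6 LPS arrays, with a median of -0.09, and on only 1 of 6 LPS+IFG arrays, where it was 3.87. It was therefore not tested.

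Promoter sequences of the called genes with the largest differences are shown because motifs of the IFG pathway recur in them. Upstream bases -200 to -1 of the RefSeq transcript start (build GRCm38.p6) are given 5′ to 3′ on the gene's strand, for the 6 genes with the largest differences that hold a motif. Capitals mark a gamma-activated site, TTCNNNGAA, or an interferon-stimulated response element, GAAANNGAAA, searched on both strands with overlaps allowed.
Irgm2 (chr11:58214777-58214976, plus strand): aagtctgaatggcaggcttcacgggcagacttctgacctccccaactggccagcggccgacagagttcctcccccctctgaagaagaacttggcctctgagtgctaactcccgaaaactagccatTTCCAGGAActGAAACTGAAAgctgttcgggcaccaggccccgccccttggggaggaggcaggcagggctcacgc
Tgtp1 (chr11:48992247-48992446, minus strand): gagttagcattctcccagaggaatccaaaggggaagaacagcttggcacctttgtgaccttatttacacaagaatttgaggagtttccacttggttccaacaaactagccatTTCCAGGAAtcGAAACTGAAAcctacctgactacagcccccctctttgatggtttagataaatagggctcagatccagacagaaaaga
Irf1 (chr11:53769814-53770013, plus strand): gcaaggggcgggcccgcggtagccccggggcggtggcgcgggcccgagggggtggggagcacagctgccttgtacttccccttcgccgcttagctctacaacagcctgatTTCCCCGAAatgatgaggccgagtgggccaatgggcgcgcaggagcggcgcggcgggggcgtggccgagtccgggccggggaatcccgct
Irf8 (chr8:120736158-120736357, plus strand): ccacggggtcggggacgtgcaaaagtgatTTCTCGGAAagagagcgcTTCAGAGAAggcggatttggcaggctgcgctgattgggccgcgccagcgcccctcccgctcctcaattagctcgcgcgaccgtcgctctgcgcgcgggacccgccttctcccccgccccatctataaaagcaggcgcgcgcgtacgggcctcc
Gbp3 (chr3:142559844-142560043, plus strand): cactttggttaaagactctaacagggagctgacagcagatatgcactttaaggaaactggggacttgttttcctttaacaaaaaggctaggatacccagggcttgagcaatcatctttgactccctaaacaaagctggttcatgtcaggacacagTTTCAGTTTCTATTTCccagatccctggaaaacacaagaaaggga
Igtp (chr11:58199356-58199555, plus strand): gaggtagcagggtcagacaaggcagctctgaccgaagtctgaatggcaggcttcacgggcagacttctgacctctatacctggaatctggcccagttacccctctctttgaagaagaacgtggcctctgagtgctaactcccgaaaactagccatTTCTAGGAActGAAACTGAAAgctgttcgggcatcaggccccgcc
In Irgm2, Tgtp1 and Igtp a gamma-activated site was followed after 2 bases by a response element in the same orientation. The site began at -75, -88 and -45 relative to the start, in that order. Over the 81 bases that hold both motifs and 30 bases on each side, Irgm2 and Igtp were identical at 79 positions, and Irgm2 and Tgtp1 at 46. The Irf1 promoter held a gamma-activated site at -90 to -82 and no response element. Irf8 held gamma-activated sites at -171 and -153, and Gbp3 held response elements at -45 and -39, overlapping each other, with no gamma-activated site.

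Of the 66 genes called higher, 47 have a promoter of 300 bases (250 before to 50 after the start) in the RefSeq table. A gamma-activated site was present in 9 of them (19.1%), a response element in 13 (27.7%) and either in 18 (38.3%). Among 7743 named genes tested that have a promoter, the shares were 8.60%, 3.94% and 11.8%. Over all 27025 genes of the table they were 9.55%, 3.99% and 12.9%. Of the 20 largest differences, 14 had a promoter and 8 of these (57.1%) held either motif. Of the 3 genes called lower, 2 had a promoter, and these 2 (Bcl6 and Tsc22d1) held a gamma-activated site and no response element. Of 10 genes called above the sum of LPS and IFG, described below, 8 had a promoter and 2 of these (25%) held either motif. These matches are descriptions of letters, not of bound sites, and the genes were chosen by their response.

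Of 10 measured CXC chemokines 1 was called higher (list median 0.09), and of 16 CC chemokines also 1 (list median 0.11), where 0.629% of all features were. Cxcl11, described above, was not among the 10 because of the value filter. Cxcl9, which draws T cells through CXCR3, was at untreated level in the LPS sets (0.03, -0.04 and 0.09) and at 5.35, 4.54 and 5.62 in the LPS+IFG sets, a 35.4-fold difference. IFG alone reached 2.39, 2.60 and 2.44, so all combination sets lay above all IFG sets. Ccl12, a monocyte chemoattractant, rose from 0.15, 0.16 and 0.07 to 2.72, 2.90 and 2.88 (2.71, SE 0.23, adjusted p = 1.32e-10), against an IFG mean of 0.69. Cxcl16 was 0.25 higher (SE 0.18) and Ccl22, a ligand of CCR4, was -0.27 (SE 0.23), neither passing the test. Cxcl12 gave 0.70 as a mean of 2 probes that disagreed (-0.02 and 1.43). Cxcl10 could not be tested: 1 of its probes lacked a value on 1 of 6 LPS arrays and on 6 of 6 LPS+IFG arrays. On the other probe medians were 3.01 with LPS and 3.71 with LPS+IFG, with 2 of 6 LPS+IFG arrays missing.

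Inflammatory cytokines that LPS itself had raised by 1 h showed no call with IFG in the main fit. Only Il15, a growth factor of natural killer and memory T cells, was called among 18 measured, and the list median was -0.06. Il15 sets were 0.29, 0.32 and 0.24 with LPS and 1.32, 1.83 and 1.10 with LPS+IFG (1.14, SE 0.24, adjusted p = 0.00561). Tnf stood at 3.38, 3.04 and 3.90 with LPS and at 3.35, 2.57 and 4.24 with LPS+IFG. Its difference was -0.05 with an interval of -0.95 to 0.84, and the sets overlapped. For Il10, an anti-inflammatory cytokine, the difference was -0.39 (-0.93 to 0.16). Csf3, the granulocyte colony-stimulating factor, was lower in each set (2.16, 1.67 and 1.94 against 1.39, 0.92 and 1.02), which did not pass the test (-0.81, SE 0.36). Il1a was higher without overlap (1.12, SE 0.41, adjusted p = 0.578). It was called with only the compared conditions fitted (SE 0.17, adjusted p = 0.0077) and with all 90 arrays and a dye term (adjusted p = 0.0394). Il6, Il12a and Il12b, cytokines of later phases, lay between -0.82 and 0.51 in every set of both conditions, with differences of 0.19, -0.07 and 0.03. Tlr2, a receptor for bacterial lipoproteins, was 0.61 lower without a call (SE 0.22, adjusted p = 0.532), and none of 13 Toll-like and co-receptors was called.

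Surface ligands and antigen presentation showed single early genes. Cd274, the checkpoint ligand PD-L1, went from 0.07, -0.43 and 0.11 to 3.12, 2.88 and 3.20 (3.16, SE 0.22, adjusted p = 1.07e-12). Cd40, a receptor for T cell help, had already risen with LPS (1.47, 2.01 and 1.33) and stood higher with LPS+IFG (3.40, 3.59 and 3.38). These were 2 of 11 measured co-stimulatory and checkpoint genes (median 0.02). In class I antigen processing 1 of 16 was called (median 0.12): Tap1, the peptide transporter, with -0.22, -0.17 and -0.26 against 1.52, 1.20 and 1.02 (1.46, SE 0.23, adjusted p = 6.19e-05). B2m, the light chain of class I molecules, was 0.37 higher (SE 0.13) and not called. None of 8 MHC class II genes was called (median -0.04), and Ciita, their master activator, differed by -0.04 (-0.29 to 0.21).

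Antiviral interferon-stimulated genes were the list with most calls. Of 31 measured members 11 were called higher and none lower, and the median difference was 0.87. Parp14, an ADP-ribosyltransferase, was the largest, at 0.12, 0.31 and 0.40 with LPS and 2.00, 2.30 and 2.42 with LPS+IFG (1.96, SE 0.22, adjusted p = 3.97e-08). Ifi203 and Ifi204, DNA-binding proteins of the HIN-200 family, were 1.80 (SE 0.27) and 1.66 (SE 0.27) higher. Cmpk2, a mitochondrial nucleotide kinase, was 1.78 higher (SE 0.33). Neither Zbp1, a sensor of Z-form nucleic acids (1.44, SE 0.48, adjusted p = 0.349), nor Isg15, a ubiquitin-like protein (0.93, SE 0.27, adjusted p = 0.134), was called. Zbp1 had 2 LPS+IFG sets. With same-numbered sets taken as a block, Zbp1 was called (1.34, adjusted p = 0.000505). Without a block it was also called when only the compared conditions were fitted (1.44, SE 0.13, adjusted p = 0.000506) or with a dye term (1.25, adjusted p = 0.0342).

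Genes that LPS is known to induce early were examined next. Among 38 immediate early genes, whose median ratio was 1.51 with LPS and 1.34 with LPS+IFG, only Atf3, a stress-induced factor, was called. It went from 1.84, 1.48 and 2.09 to 3.20, 2.80 and 3.18 (1.26, SE 0.20, adjusted p = 0.000112). Egr2, a zinc finger factor, had a larger difference (1.39, SE 0.65) and overlapping sets, and did not pass. In the NF-kB list 2 of 25 were called with a median of 0.01. Bcl3, a nuclear IkB protein, stood at 1.35, 1.21 and 0.48 against 2.69, 2.62 and 1.86 (1.37, SE 0.28, adjusted p = 0.00342). Map3k8, a kinase that links Toll-like receptors to ERK, was 1.35 higher (SE 0.23, adjusted p = 0.000214). Birc3, an inhibitor of cell death (0.97, adjusted p = 0.0186), and Myd88, the Toll-like receptor adaptor (0.78, adjusted p = 0.000112), passed the p threshold and fell short of 2-fold.

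Of 14 nitric oxide and arginine genes none was called (median -0.01). Nos2, the inducible nitric oxide synthase, read -0.06, 0.02 and -0.02 with LPS and 0.36, 0.40 and 0.12 with LPS+IFG, and the interval of its difference was -0.11 to 0.73. None of 35 cell cycle genes (median -0.02) and none of 15 growth factor and purine signalling genes (median -0.03) was called. Among 17 cell death genes Pmaip1, the BH3-only protein Noxa, was called (1.44, SE 0.26, adjusted p = 0.000541). Fas, a death receptor, differed by 1.20 (SE 0.35, adjusted p = 0.133) and was called with the block (adjusted p = 0.00033). Fas was also called with only the compared conditions fitted (adjusted p = 0.0246). None of 15 Fc and complement genes was called (median 0.10). C3ar1, the receptor for complement fragment C3a, came nearest at 1.02 (SE 0.27, adjusted p = 0.055), and it too was called with the block (adjusted p = 0.00251). Fcgr3, an IgG receptor, was 0.85 higher (SE 0.22, adjusted p = 0.0425).

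**Figure D3:**
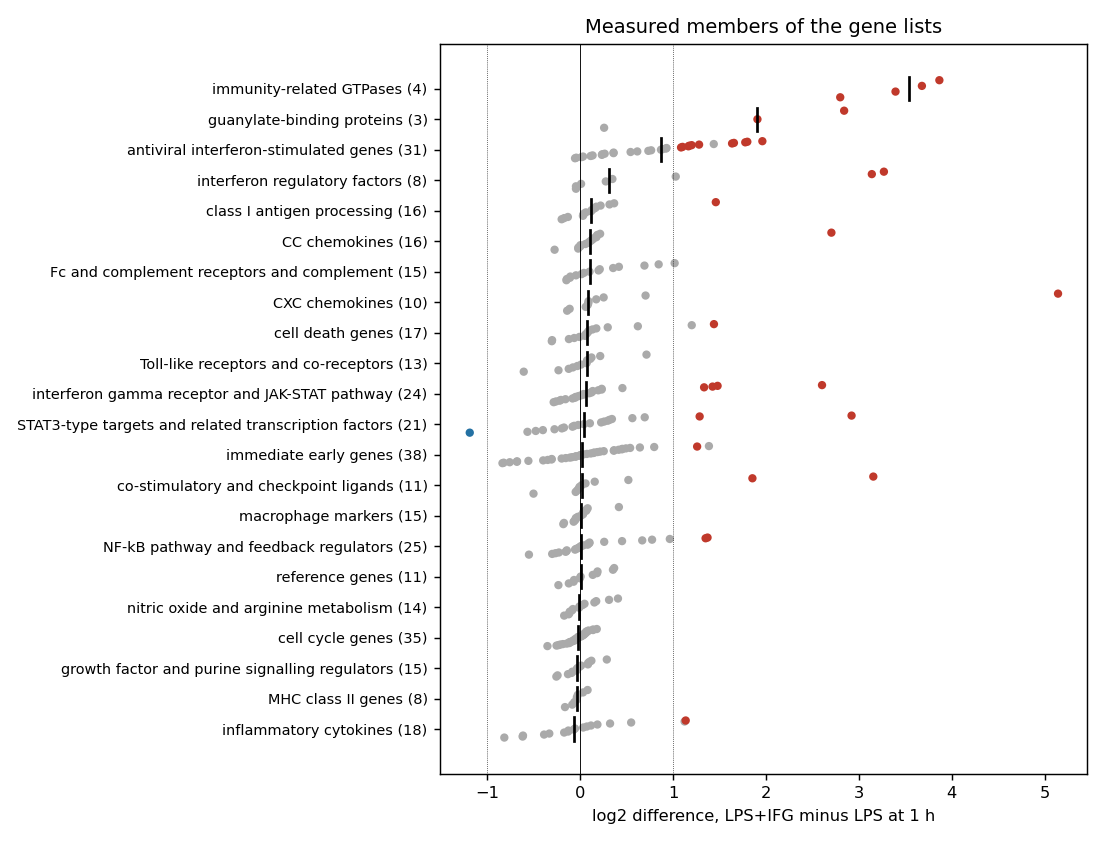
Log2 difference of LPS+IFG minus LPS at 1 h (horizontal axis) for every measured member of 22 gene lists (rows, number measured in parentheses), with called members in red (higher) or blue (lower), others in grey, black ticks at list medians and dotted lines at 2-fold. The medians of the GTPase, guanylate-binding and antiviral lists lie at 3.54, 1.91 and 0.87, and those of the other lists between -0.06 and 0.31.

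Some of these calls depend on 1 set, on the scale of the arrays or on the conditions fitted. Without set 2 of LPS+IFG Il15 (0.93, adjusted p = 0.126) and Cebpd (0.89, adjusted p = 0.233) were lost, and Cebpd also without set 3 of LPS (0.97, adjusted p = 0.169). Cebpd was lost as well with only the compared conditions fitted (1.29, adjusted p = 0.305). Bcl3 was lost without set 3 of LPS (1.11, adjusted p = 0.0928) or set 1 of LPS+IFG (1.22, adjusted p = 0.054), and Gbp8 without set 1 of LPS (1.64, adjusted p = 0.2). With the spread of arrays made equal Cd40 (1.67, adjusted p = 0.176), Cmpk2 (1.74, adjusted p = 0.0595), Atf3 (0.88, adjusted p = 0.547), Map3k8 (1.22, adjusted p = 0.0872), Il15 and Gbp8 were not called.

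Several called genes belong to none of these groups. Hcar2, a receptor for hydroxybutyrate and niacin, went from -0.60, 0.28 and -0.40 to 1.74, 2.15 and 2.37 (2.33, SE 0.29, adjusted p = 4.63e-07). Ltb4r1, the receptor of the chemoattractant leukotriene B4, went from -0.04, 0.00 and 0.14 to 1.94, 2.25 and 1.57, and all 3 of its probes were called. B4galt3, a galactosyltransferase, was 1.91 higher (SE 0.18, adjusted p = 2.33e-09) and Gdap10 was 1.98 higher (SE 0.24, adjusted p = 3.94e-07).

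The 3 genes that fell had LPS ratios above 0 in every set and a mean below 0 with IFG alone. Tcim, a small regulator of transcription and immune response, stood at 1.85, 1.06 and 2.98 with LPS and 0.23, 0.36 and 1.10 with LPS+IFG (-1.40, SE 0.35, adjusted p = 0.0374), with overlap. Bcl6 went from 0.70, 0.77 and 0.66 to -0.32, -0.72 and -0.39 (-1.19, SE 0.27, adjusted p = 0.0135), against -0.88 with IFG alone. Tsc22d1, a leucine zipper factor, went from 1.61, 1.55 and 1.76 to 0.49, 0.48 and 0.56 (-1.13, SE 0.29, adjusted p = 0.0483). Each of the 3 calls could be lost by leaving out 1 set. Where lost in this way, the difference itself stayed at -1.19 to -1.07 for Bcl6 and at -1.17 to -1.07 for Tsc22d1. Without set 1 of LPS none of the 3 was called (adjusted p = 0.0622 for Bcl6, 0.103 for Tcim and 0.161 for Tsc22d1). Leaving out set 2 of LPS kept only Tcim (-1.85). Tcim was itself lost without set 3 of LPS (-0.89, adjusted p = 0.86) and without set 1 (-1.23, adjusted p = 0.329) or set 2 (-1.30, adjusted p = 0.235) of LPS+IFG, and Tsc22d1 was lost without any of the 6 sets in turn. Without set 2 of LPS+IFG only Bbs10 was called lower (-1.13), a chaperonin-like protein of cilia named after its values were seen. With the spread of arrays made equal, or with either dye orientation alone, the lower call was Bcl6. Tcim was also lost with only the compared conditions fitted (-1.40, adjusted p = 0.317).

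Whether IFG added the same log2 ratio in the presence of LPS as alone was asked by setting the combination against the sum of both single treatments. The 1 h sets of LPS and LPS+IFG enter this comparison too, so it is not independent of the one above. For 10 features (0.0862%) the combination was called above the sum, and for 0 (0.00%) below it, where 117 and 69 features had an unadjusted p under 0.05 by limma. Some strongly called genes were close to the sum. Irf1 differed from it by -0.17 (interval -0.81 to 0.46), Socs1 by -0.35 (-0.86 to 0.15) and Igtp by 0.23 (-0.40 to 0.86). Others lay above it with intervals that left out 0 and yet were not called after adjustment. Among these were Cd274 (1.19, 0.64 to 1.74, adjusted p = 0.103), Batf2 (1.17, 0.60 to 1.74, adjusted p = 0.14) and Irf8 (1.10, 0.56 to 1.64, adjusted p = 0.14). With same-numbered sets as a block 13 features were above and 2 below, the latter Pim1, a kinase (-1.35, adjusted p = 0.0343), and Zfp36, which destabilises cytokine mRNA (-2.18, adjusted p = 0.00661). Both were named after their values were seen.

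Sgk1, a kinase related to Akt, departed most. Neither single treatment moved it: LPS sets read -0.10, -0.04 and 0.13, and IFG sets -0.06, 0.01 and -0.30. The combination read 2.31, 2.32 and 3.19, which was 2.73 above the sum (SE 0.44, adjusted p = 0.000853). Cxcl9 was 2.67 above it (SE 0.24, adjusted p = 4.39e-09). F3, tissue factor, the starter of coagulation, had 1.24, 1.45 and 1.58 with LPS, 0.59, 0.77 and 0.16 with IFG and 3.90, 4.59 and 3.96 with both (2.22 above, SE 0.43, adjusted p = 0.0137). Ccl12 was 2.01 above the sum (SE 0.29, adjusted p = 0.000108). Gar1, a protein of small nucleolar ribonucleoproteins, had LPS sets of 0.35, -0.06 and 0.01 and 2 combination sets, 2.41 and 2.64. It was 1.78 above the sum (SE 0.20, adjusted p = 1.3e-06).

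The other 5 genes departed by less. Crem, a cyclic AMP-responsive factor, read 2.26, 2.19 and 2.08 with the combination and was 1.28 above a sum of 0.90. Atg16l1, part of the autophagy conjugation complex, was 1.19 above. Lce1d, a protein of the cornified envelope, was 1.13 above, and Cyp4f14, a cytochrome P450, 1.03. Tceanc2, which resembles transcription elongation factors, was 1.05 above with an adjusted p at the threshold (0.05). Arrays differed in spread (median absolute deviation 0.219 to 0.425 for LPS, 0.299 to 0.446 for LPS+IFG and 0.226 to 0.374 for IFG). With the spread made equal only 5 features stayed above: Cxcl9 (1.92, adjusted p = 0.273), F3 (1.83, adjusted p = 0.999), Crem, Lce1d and Tceanc2 were lost. Without set 1 or set 2 of LPS 5 features were above the sum, and without set 3 of LPS+IFG or of IFG 6 were. Sgk1, Cxcl9, Ccl12 and Gar1 kept their call without each of the 9 sets in turn. F3 lost it without set 2 of LPS+IFG (2.00, adjusted p = 0.113), set 1 (2.13, adjusted p = 0.088) or set 2 (2.23, adjusted p = 0.0637) of LPS or set 3 of IFG (2.05, adjusted p = 0.118). Leaving out 1 set at a time also ended the call of Crem in 7 of 9 cases (1.19 to 1.32, adjusted p = 0.055 to 0.151), all but set 3 of LPS and set 2 of IFG. Cyp4f14 lost it in 6 (0.90 to 1.04, adjusted p = 0.0517 to 0.169), namely each LPS set, set 3 of LPS+IFG and sets 1 and 2 of IFG. For Lce1d it was lost in 4 (1.04 to 1.12, adjusted p = 0.0523 to 0.0977), namely sets 1 and 3 of LPS+IFG, set 2 of LPS and set 3 of IFG. Tceanc2 kept it only without set 1 of LPS+IFG, and otherwise stood at 0.96 to 1.11 (adjusted p = 0.0724 to 0.273). Atg16l1 fell short of 2-fold without set 1 of LPS (0.96, adjusted p = 0.00835). With treated RNA in Cy5 only 22 were above and in Cy3 only 4.

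**Figure D4:**
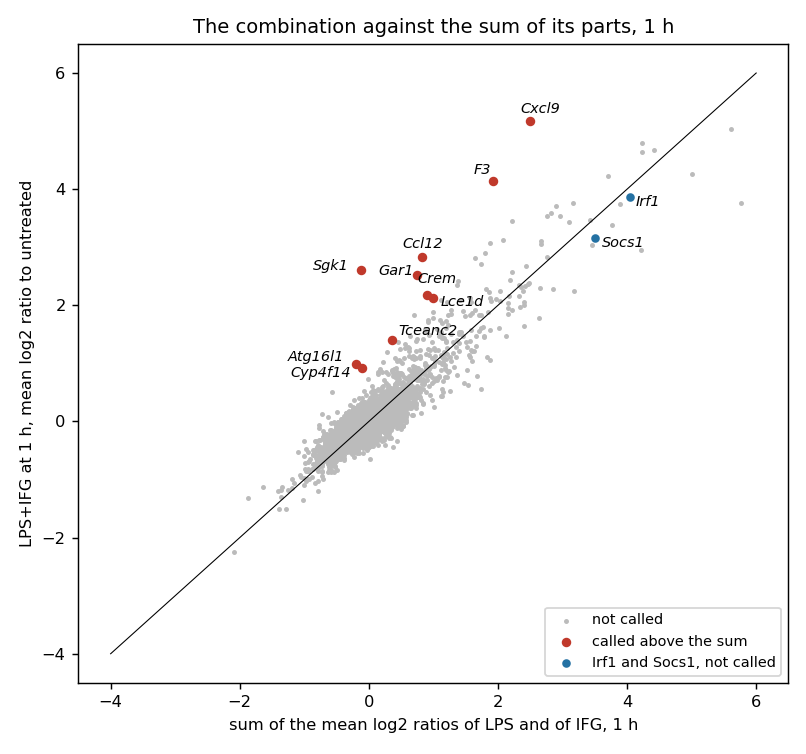
Mean log2 ratio of LPS+IFG at 1 h (vertical axis) against the sum of the mean log2 ratios of LPS and IFG at 1 h (horizontal axis) for 11600 features, with the line of equality, the 10 features called above the sum in red and Irf1 and Socs1 in blue. Sgk1 lies at a sum of -0.12 and a combination of 2.61, while Irf1 and Socs1 lie near the line.

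The response to added IFG at 1 h was also compared with that at 4 h, by the difference between the 2 differences. It was larger at 4 h in 48 features (0.414%) and smaller in 46 (0.397%). With the sets of a time as a block these counts were 64 and 71, although the numbers of 1 h and 4 h sets do not pair samples with each other. Of the lists, the antiviral genes had 7 of 31 members with a smaller difference at 4 h and none with a larger one, and 3 of 4 immunity-related GTPases had a smaller one. Their median differences at 1, 2 and 4 h were 0.87, 0.54 and -0.01 for the antiviral list and 3.54, 3.21 and 1.19 for the GTPases.

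Among named genes Irgm2 showed the largest decrease. Its difference was 3.87 at 1 h, 1.98 at 2 h and 0.20 at 4 h, when LPS alone had reached a mean of 3.52 and the combination 3.71. The 4 h difference was lower by 3.67 (SE 0.36, adjusted p = 7.03e-08). Irf1 and Cd274 followed the same course: LPS alone reached 2.71 and 3.45 at 4 h, and their differences there were 0.74 (SE 0.26) and 0.68 (SE 0.25). For Trim21, an Fc-binding ubiquitin ligase, the sign changed, from 1.64 (SE 0.26) at 1 h to -0.87 (SE 0.26, adjusted p = 0.042) at 4 h, and LPS alone stood at 2.80. Hcar2 went from 2.33 to -0.56, and the latter did not pass the test (adjusted p = 0.496). Sgk1 differed from these: at 4 h both conditions were low, at 0.64 with LPS and 0.46 with LPS+IFG, so its difference went from 2.61 at 1 h and 2.66 at 2 h to -0.19 (SE 0.36). The change over time was not called for Sgk1 with only the compared conditions fitted, nor for Irf1 with the spread of arrays made equal.

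Of the 6 genes named for a larger difference at 4 h, only Ly6i was called at 1 h. Ly6i, a surface protein of the Ly6 family, was already 1.10 higher at 1 h (SE 0.24, adjusted p = 0.00717) and 4.06 higher at 4 h (SE 0.24). Its 1 h call was lost without set 1 of LPS (1.06, adjusted p = 0.0554) or of LPS+IFG (0.85, adjusted p = 0.208). It was also not called with treated RNA in Cy3 only (0.47, adjusted p = 1) or with 1 array taken where its dye swap was missing (0.74, under 2-fold). Procr, the endothelial protein C receptor, had LPS sets of 0.35, 0.14 and 0.32 and LPS+IFG sets of 0.01, 0.11 and 0.15 at 1 h. By 4 h its means were 1.89 and 4.17. Upp1, uridine phosphorylase, and Fst, the activin inhibitor follistatin, were 0.24 and 0.43 higher at 1 h and 2.60 and 2.65 higher at 4 h. Rnase6, an antimicrobial ribonuclease, and Zyx, the focal adhesion protein zyxin, differed by 0.06 and 0.01 at 1 h and by 2.19 and 2.13 at 4 h. With the spread of arrays made equal 16 features were larger at 4 h and 30 smaller, and 42 of the 94 calls of the main fit were shared. Rnase6 and Zyx were among the calls lost there.

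**Figure D5:**
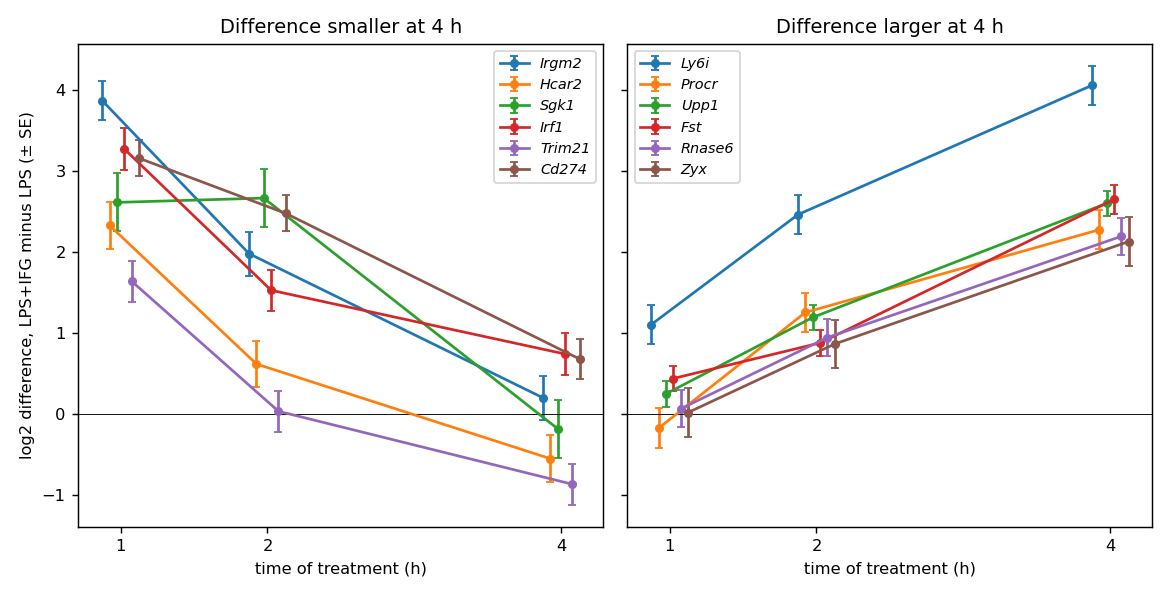
Log2 difference of LPS+IFG minus LPS (vertical axis, ± SE from the fit) at 1, 2 and 4 h (horizontal axis) for the 6 named genes whose difference was most reduced at 4 h (left) and the 6 whose difference was most increased (right). Irgm2 goes from 3.87 to 0.20, and Ly6i goes from 1.10 to 4.06.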

How the data were processed

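Per the labels, total RNA of treated and time-matched untreated cells was hybridised to custom Agilent arrays with dyes swapped. The deposited values are log2 ratios, limited at a 100-fold ratio. The steps by which the authors read and normalised the arrays are not given in the sources used here. Exact zeros were taken as missing, arrays with treated RNA in Cy3 were turned in sign, and swapped arrays were averaged where both had a value. Of 16281 probes, 13738 name 1 gene, 52 several and 2543 none. Probes with at least 2 of 3 sets in all 15 conditions were kept and averaged by gene. A mean per condition was fitted to 45 sets with limma 3.58.1 (R 4.3.3), with 2-sided p-values adjusted by Benjamini-Hochberg within a comparison. The fit was tested on simulated data. Figures used Python 3.11.15, pandas 2.3.3 and matplotlib 3.10.9.

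Sets of LPS+IFG and LPS with the same number deviated together from their group means (correlations 0.469, 0.199 and 0.706), so the numbers appear to pair the sets, from the data and not from the labels. The fit does not use this.

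The members and lists were chosen with earlier results of these data known. Named were the 20 largest called differences above 0 and up to 10 below, the 4 largest called and 2 largest uncalled members of each list, all receptor, JAK-STAT and IRF genes, genes called against the sum, 6 genes in each direction against 4 h, and known markers of macrophage activation. Promoters and gene symbols are from RefSeq (GRCm38.p6), which held 99.7% of the gene IDs. Alternatives were the fitted conditions, block, array spread, dyes, missing values, thresholds, prior variance, probes and each set left out.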

Additional observations from a re-analysis of the deposited data

Results flagged for a closer look

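The addition of IFG differed with and without LPS, by limma's test of the difference itself, for the 10 genes called above the sum at 1 h. The log2 departures were 2.73 for Sgk1, 2.67 for Cxcl9, 2.22 for F3, 2.01 for Ccl12, 1.78 for Gar1, 1.28 for Crem, 1.19 for Atg16l1, 1.13 for Lce1d, 1.05 for Tceanc2 and 1.03 for Cyp4f14. Of 19 or 20 alternatives for each gene Tceanc2 lost its call in 15, Crem in 10, Lce1d in 9, Cyp4f14 in 8, F3 in 6, Atg16l1 in 3 and Cxcl9 in 1.

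The difference between LPS+IFG and LPS changed between 1 h and 4 h, by the same kind of test. Among named genes the largest changes toward a smaller value at 4 h were -3.67 for Irgm2, -2.88 for Hcar2, -2.80 for Sgk1, -2.53 for Irf1, -2.51 for Trim21 and -2.48 for Cd274. Toward a larger value they were, again among named genes, 2.96 for Ly6i, 2.45 for Procr, 2.35 for Upp1, 2.21 for Fst, 2.13 for Rnase6 and 2.11 for Zyx. Probes without a gene name changed by up to 2.52 in that direction. Of these named genes Irf1, Rnase6 and Zyx lost the call with equal array spread, and Sgk1 with only the compared conditions fitted. Irgm2, Cd274 and Fst were not among the calls with complete values only, a setting that leaves out features lacking a set.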

How the results depend on the processing

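No named gene changed the sign of a called difference between LPS+IFG and LPS, and no gene called against the sum changed the sign of its departure. Signs of the changes from 1 h to 4 h were not followed. Of the named differences between LPS+IFG and LPS under all alternatives, 2104 kept their call or lack of one, 41 lost a call and 16 gained one. Against the sum, 145 kept a call and 52 lost it. Beside 73 higher and 3 lower features, 55 to 107 were higher. The count of lower features was 1 with equal array spread and with treated RNA in Cy5 or Cy3 only, and 5 with the dye term, by adjusted p alone or at 1.5-fold. Above the sum 5 were called with equal spread, 22 in Cy5 only, 4 in Cy3 only and 6 with complete values. Below it 1 was called with only the compared conditions (Pim1), equal spread (an unnamed probe), Cy3 only (Capn15) or each probe alone (1 of Adora3), and 2 with the dye term or the block. For 4 h against 1 h the replicate block gave 71 smaller differences, equal spread 16 larger and 30 smaller, and adjusted p alone or 1.5-fold 76 larger. Leaving out a set gave 67 to 73 higher and 0 to 4 lower features, 5 to 9 above and 0 below the sum, and 38 to 56 larger and 37 to 58 smaller differences at 4 h. Between 64 and 68 of the 76 calls of the first comparison were then shared. The block gave 78 higher and 4 lower features with all 76 calls kept. Between LPS+IFG and LPS it changed no other call of a named gene than those given beside the results. It also kept all 10 calls against the sum and all 94 of 4 h against 1 h. Whether other named genes gained a call in those 2 comparisons was not followed. Causes were not tested.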

Other observations

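Nos2, Il6 and Gbp4 were not called at 1 h and had larger differences between LPS+IFG and LPS at 2 h, at 1.61 (SE 0.20, adjusted p = 8.9e-07) for Nos2, 1.03 (SE 0.27, adjusted p = 0.0258) for Il6 and 1.14 (SE 0.29, adjusted p = 0.0246) for Gbp4, by limma. Whether these exceed the 1 h differences was not tested at 2 h.

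Missing values were not spread evenly. At 1 h 15 probes had a value on 5 or 6 of 6 LPS arrays and on at most 1 of 6 LPS+IFG arrays, and 12 probes the reverse. The first group held Cxcl10, Irgm1, Il1rn, an inhibitor of interleukin 1, and Vsir, a checkpoint ligand. It also held genes of none of the lists, such as Gabrq, Gng2 and Pgr, and unnamed probes. The second held a further probe of Cxcl9 beside genes such as Cfl1 and Ebp. The sources used here do not say what an exact 0 stands for.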
